A study of Rattus norvegicus with 16 samples.

Results

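The genes described here are 10 members of the BCL2 family and its relatives, measured as RNA in the hearts of newborn rats of a strain with enlarged hearts and of its control strain: Bcl2, Bcl2l1, Bcl2l2, Mcl1, Bax, Bak1, Bid, Bad, Bcl2l11 and Bnip3. A member was taken to be measured where a probe set of the array was annotated with its symbol and no other, and the probe set with the highest mean over all arrays stood for the gene. This held for 9 of the 10 members, out of 14324 genes named in this way on the array. Bcl2l2 had only a probe set that it shared with Pabpn1, so that probe set is described apart and belongs to neither gene alone.

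BCL2 family proteins decide whether the outer membrane of mitochondria stays closed. The anti-apoptotic members hold the pore-forming members BAX and BAK in check, and the BH3-only members relieve that hold or activate the pore formers, after which cytochrome c leaks out and caspases are switched on. In the heart, where lost muscle cells are replaced poorly after birth, this balance has been studied as a determinant of how many cardiomyocytes remain, and Bnip3 is known in addition as a hypoxia-induced mitochondrial protein that marks mitochondria for removal.

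The arrays came from 16 rats aged 2 days, 1 rat per array with no pooling, and the animals received no treatment named in the labels. There were 4 female and 4 male Hypertrophic Heart Rats (HHR), whose hearts are labelled as hypertrophic, and 4 female and 4 male Normal Heart Rats (NHR), the control strain, whose hearts are labelled as normal. The design text describes ventricles separated from the atria, while another field of the labels speaks of the whole heart. The sources used here name no litter, dam or processing batch, so p-values measure the spread between these animals, and each strain is represented by a single inbred line. A sequence variant of 1 strain under a probe cannot be told apart from a change of RNA.

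The values are log2 expression values made by RMA, which corrects background, normalizes arrays and summarises the probes of a probe set. Array medians ranged from 7.19 to 7.28 log2 units. The 9 cardiomyocyte markers fixed for the check of the tissue, such as Myh6 and Tnnt2, had strain means of 12.24 to 14.24. Myl7 and Nppa, from the list of atrial markers, averaged 12.95 and 13.31 in HHR and 12.88 and 12.97 in NHR. Whether these levels came from atrial tissue was not tested. Within groups, the leading component of all probe sets carried 26.7% of the variance and spread the NHR arrays to both sides of their group means. NHR female 3, NHR female 4 and NHR male 4 scored highest (14.4, 15.1 and 22.6), the other 5 NHR arrays from -16.9 to 1.74 and the HHR arrays from -3.72 to 7.48. Scores around a group mean do not show which side is unusual. The 3 high-scoring arrays include both with very low Bcl2, and values without them are given where they end a call or move a called difference by over 1.5 times. Such values are not given for the probe set shared by Pabpn1 and Bcl2l2. A difference is HHR minus NHR, averaged over the sexes unless a sex is named, and it was called where the adjusted p of limma over all 27342 probe sets was under 0.05.

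Bcl2 RNA was higher in HHR hearts and was the only member called in the comparison of the strains over both sexes. That makes 1 of 9 measured members, against 20.7% of all probe sets and 23.1% of all named genes called in the same comparison (9.64% and 11.8% in the direction of a higher level in HHR), so the count for the family was not above the background. At an unadjusted p under 0.05, Bcl2 and Bnip3 passed, 2 of 9 against 33.2% of all probe sets. The median difference over the 9 members was 0.05, with 6 above 0 and 3 below, beside a median of -0.02 over all named genes. The median size of the difference, regardless of sign, was 0.10 in the members and 0.09 in all named genes. In bulk tissue, fewer cells of a type and less RNA per cell cannot be told apart.

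**Figure D1:**
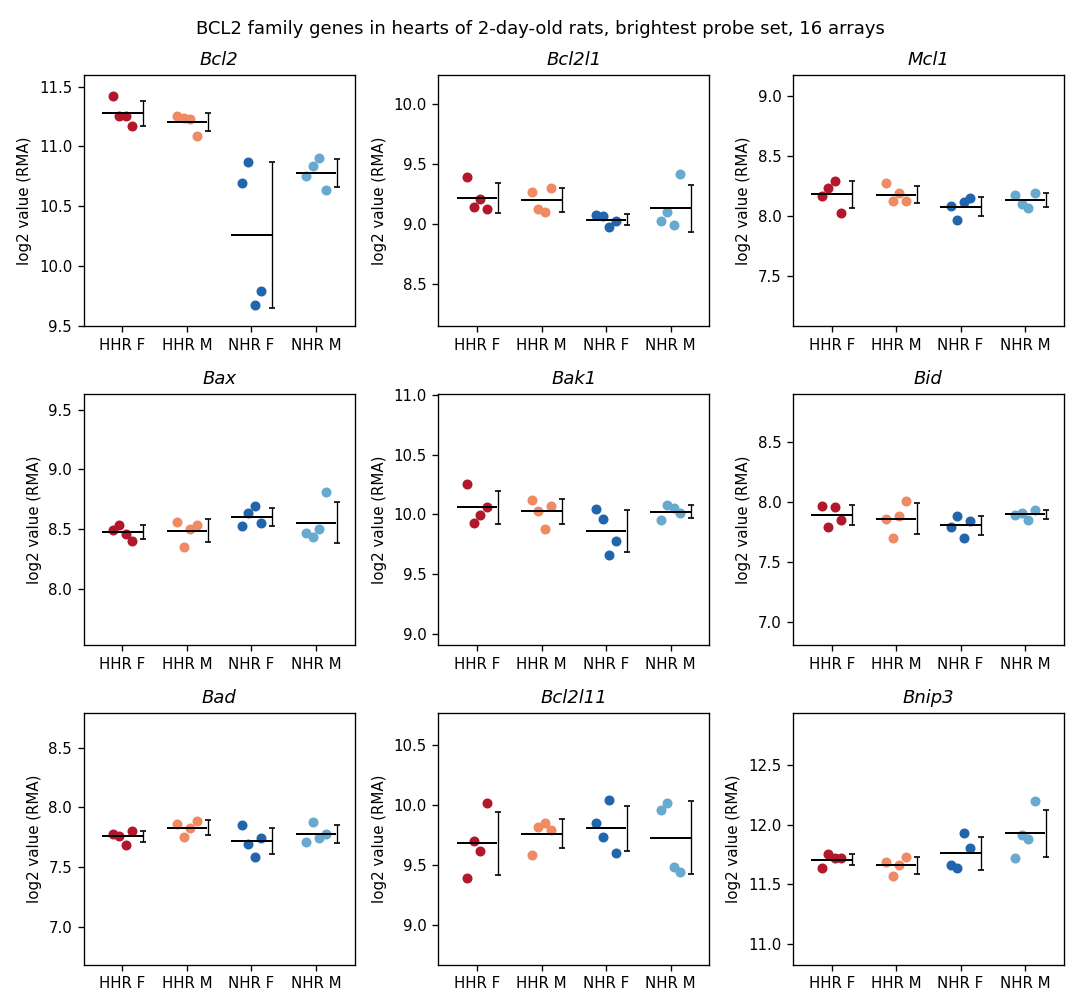
The log2 value of each of the 9 measured members is plotted by group (F, female; M, male), each point being 1 array, each horizontal line a group mean and each bar 1 SD to either side, with n = 4 per group. All axes span the same log2 range. Bcl2 separates the strains without overlap, with NHR female 3 and NHR female 4 far below the other arrays, while the points of the strains overlap in the other 8 panels.

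Bcl2 encodes the founding anti-apoptotic protein of the family, which sits on the mitochondrial outer membrane and binds BH3-only proteins and BAX. In HHR females its values were 11.42, 11.26, 11.26 and 11.17, and in HHR males 11.26, 11.23, 11.23 and 11.09. In NHR females they were 10.70, 10.87, 9.68 and 9.79, and in NHR males 10.75, 10.83, 10.91 and 10.63. Every HHR array lay above every NHR array, which held for 1.95% of all probe sets in this direction and for 4.15% in either direction. The HHR arrays were close together, whereas NHR female 3 and NHR female 4 lay far below the other 6 NHR arrays, which ran from 10.63 to 10.91.

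The mean of Bcl2 was 11.24 ± 0.09 (SD, n = 8) in HHR and 10.52 ± 0.49 (SD, n = 8) in NHR. The difference was 0.72 (SE 0.14, 95% interval 0.43 to 1.01), or 1.65-fold, with a limma adjusted p of 0.00140. The size of the difference depended on the low NHR female arrays. Without NHR female 3 and NHR female 4 the difference was 0.46 (SE 0.06, adjusted p = 1.77e-04), and without all 3 high-scoring arrays it was 0.43 (SE 0.06, adjusted p = 2.15e-04). These fits were chosen after the values were seen. Leaving out the lowest Bcl2 values also narrows the spread, which their p-values reflect. The call held in these and in all other alternatives, 27 of 27, with differences from 0.43 to 0.82, all of them refits of the same arrays.

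The order of the group means of Bcl2 was HHR females (11.28 ± 0.10), HHR males (11.20 ± 0.08), NHR males (10.78 ± 0.12) and NHR females (10.26 ± 0.61), each with an SD over n = 4. Neighbours of the same strain overlapped, and HHR males and NHR males did not. In females the strain difference was 1.02 (SE 0.19, 2.02-fold, adjusted p = 0.00324), which made Bcl2 the only member called there, 1 of 9 beside 12% of all probe sets. At an unadjusted p under 0.05 Bcl2 and Bak1 passed in females, 2 of 9 against 26.4%. Without the 3 high-scoring arrays it was 0.49 in females (adjusted p = 0.00493).

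In males the strain difference of Bcl2 was 0.42 (SE 0.19, 95% interval 0.02 to 0.83), and its limma adjusted p of 0.236 missed the threshold, so that 0 of 9 members were called beside 4.02% of all probe sets. Bcl2 and Bnip3 had an unadjusted p under 0.05 in males, against 19.4% of probe sets. The spread in this fit is shared by the 4 groups, and it includes the low NHR females. With the 8 male arrays fitted alone, the same difference of 0.42 had an adjusted p of 0.0164, and without the 3 high-scoring arrays it was 0.37 (adjusted p = 0.0105). Without only NHR female 3 and NHR female 4 it stayed at 0.42, with a limma adjusted p of 0.00405. All 4 HHR males lay above all 4 NHR males, as did 5.13% of probe sets.

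The strain effect on Bcl2 in males minus that in females was -0.60 (SE 0.27, unadjusted p = 0.0427, adjusted p = 0.969), so a difference between the sexes did not pass the test. Without the 3 high-scoring arrays this interaction was -0.12 (unadjusted p = 0.299). No member passed the interaction, and neither did any probe set of the array (0%). At an unadjusted interaction p under 0.05 Bcl2 alone passed, 1 of 9 beside 5.08% of all probe sets. Between males and females over both strains 0 of 9 members were called by limma, with 0 at an unadjusted p under 0.05, beside 0.011% and 6.4% of all probe sets.

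**Figure D2:**
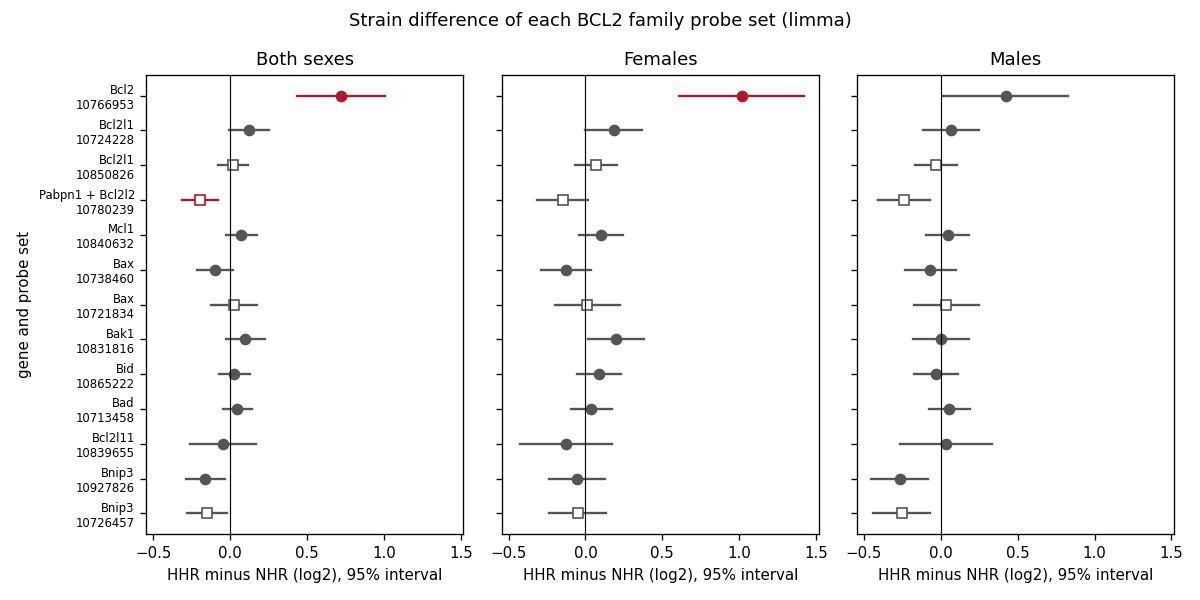
The difference of HHR minus NHR in log2 units is plotted for each probe set of the family, over both sexes, in females and in males, with its 95% interval from limma. Filled circles are the probe sets that stand for a gene, open squares are further or shared probe sets, and red marks an adjusted p under 0.05. Only Bcl2 among the circles is red, over both sexes (0.72) and in females (1.02), and the shared Pabpn1 and Bcl2l2 probe set is red over both sexes (-0.19).

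Of the other anti-apoptotic members, neither Bcl2l1 nor Mcl1 was called. Bcl2l1 encodes BCL-XL, which guards mitochondria in many long-lived cells. Its brighter probe set ranged from 9.10 to 9.39 (median 9.17) in HHR and from 8.98 to 9.41 (median 9.05) in NHR, a difference of 0.12 (SE 0.06, adjusted p = 0.170). In females all 4 HHR values, 9.39, 9.14, 9.21 and 9.12, lay above the 4 NHR values, 9.07, 9.07, 8.98 and 9.02. Such a separation was seen in 8.03% of all probe sets, and the difference of 0.18 in females had an adjusted p of 0.190.

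Among males, NHR male 4 had the highest Bcl2l1 value of all 16 arrays, 9.41. Without that array the difference over both sexes was 0.17 with an adjusted p of 0.0246, past the threshold. The second probe set of Bcl2l1 gave a difference of 0.02 (SE 0.05, adjusted p = 0.806). Both probe sets moved together within groups, with a correlation of their deviations from the group means of 0.86 over 16 arrays.

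Mcl1 encodes a short-lived anti-apoptotic protein that cardiomyocytes are known to need. Its values ran from 8.02 to 8.29 (median 8.18) in HHR and from 7.96 to 8.19 (median 8.11) in NHR, with 4 of 8 HHR arrays above the highest NHR array. The difference was 0.07 (SE 0.05, 95% interval -0.03 to 0.17, adjusted p = 0.293). The probe set shared by Pabpn1, which encodes a poly(A)-binding protein, and Bcl2l2, which encodes the anti-apoptotic BCL-W, averaged 8.19 ± 0.08 (SD, n = 8) in HHR and 8.38 ± 0.13 (SD, n = 8) in NHR. It was lower in HHR by limma, with a difference of -0.19 (SE 0.06, adjusted p = 0.0208), and 4 of 8 HHR arrays lay below the lowest NHR array. Its highest values of all arrays were those of NHR male 4 (8.62), NHR female 3 (8.45) and NHR female 4 (8.42). These are the high-scoring arrays, and how far the call rests on them was not tested.

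The pore-forming effectors did not pass the test. BAX moves from the cytosol to mitochondria when activated. Its brighter probe set had medians of 8.50 in HHR and 8.54 in NHR, with ranges of 8.35 to 8.56 and 8.44 to 8.81, and the difference was -0.10 (SE 0.06, adjusted p = 0.237). Its second probe set had the other sign, 0.02 (SE 0.07, adjusted p = 0.858). The pair of Bax probe sets tracked each other less closely than those of Bcl2l1, with a correlation of deviations of 0.48.

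BAK, encoded by Bak1, is the pore former that resides at the mitochondria. Its values ran from 9.88 to 10.25 (median 10.05) in HHR and from 9.66 to 10.08 (median 9.99) in NHR, a difference of 0.10 (SE 0.06, adjusted p = 0.276). NHR female 3 and NHR female 4, at 9.66 and 9.78, were the lowest of all arrays, as they were for Bcl2. Without these arrays the Bak1 difference was 0.03 (adjusted p = 0.814).

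None of the BH3-only members Bid, Bad and Bcl2l11 was called by limma, and 0 of these 3 had an unadjusted p under 0.05, beside 20.7% and 33.2% of all probe sets, so a count of 0 among 3 is near the background. Bid links death receptors to mitochondria, and its values ran from 7.70 to 8.01 in HHR and from 7.70 to 7.93 in NHR, a difference of 0.03 (SE 0.05, adjusted p = 0.744). Bad, whose product is switched off by survival kinases and 14-3-3 proteins, ran from 7.69 to 7.89 in HHR and from 7.59 to 7.88 in NHR, a difference of 0.05 (SE 0.04, 95% interval -0.05 to 0.14, adjusted p = 0.515). These were among the steadier members, with a pooled SD within groups of 0.088 for Bid and 0.076 for Bad.

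Bcl2l11 encodes BIM, a potent activator of BAX and BAK. Its values ran from 9.39 to 10.02 (median 9.74) in HHR and from 9.44 to 10.05 (median 9.79) in NHR. The difference of -0.05 (SE 0.10, 95% interval -0.26 to 0.17, adjusted p = 0.794) is the least precise of the members apart from Bcl2, with SDs of 0.19 to 0.30 in 3 groups and 0.12 in HHR males. Its pooled SD within groups of 0.230 lay at the 96.6th percentile of all named genes, whose median is 0.115. That of Bcl2, 0.318, lay at the 99.3rd percentile, and those of the other 7 members lay between 0.076 and 0.128.

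Bnip3 had the lowest unadjusted p after Bcl2, with HHR below NHR. Its values in HHR females were 11.64, 11.75, 11.72 and 11.72, and in HHR males 11.68, 11.57, 11.66 and 11.73. In NHR females they were 11.66, 11.64, 11.93 and 11.81, and in NHR males 11.72, 11.92, 11.88 and 12.19. The HHR arrays were close together, the NHR arrays spread upwards from the same level, and the strains overlapped.

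The Bnip3 difference was -0.16 (SE 0.06, 95% interval -0.29 to -0.03, unadjusted p = 0.0176, adjusted p = 0.0730), which missed the threshold. It was -0.27 in males (adjusted p = 0.0899) and -0.05 in females (adjusted p = 0.754), and the interaction of -0.22 had an adjusted p of 0.994. Single choices moved the call: after quantile normalization of the deposited values it was -0.22 (adjusted p = 0.0208), and without NHR male 1 it was -0.19 (adjusted p = 0.0272). Without the 3 high-scoring arrays, which include the 2 highest Bnip3 values, it was -0.06 (adjusted p = 0.442). The second Bnip3 probe set gave -0.15 (adjusted p = 0.0924) and tracked the first with a correlation of 0.997 over 16 arrays.

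Several members varied along the same axis of the arrays within groups. The deviations of Bnip3 from its group means correlated with the leading within-group component at 0.84, those of Bcl2 at -0.76, those of Bax at 0.61 and those of Bak1 at -0.45, over the same 16 arrays from which the component was computed. Among the 36 pairs of members, the highest correlations of deviations were 0.74 for Bax and Bnip3, 0.69 for Bcl2 and Bak1 and 0.67 for Bcl2l1 and Bax. The lowest were -0.62 for Bcl2 and Bnip3 and -0.57 for Bcl2l1 and Bcl2l11. These values describe arrays that share normalization and the 3 high-scoring arrays, and the part of those arrays in them was not tested.

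The probe sets differ in how surely they can be tied to their gene. Identifiers on this array mostly follow genome order: of 15067 single-gene probe sets, 95.6% had most of the named probe sets among the 15 identifiers on either side on the gene's own chromosome. This held for Bcl2 (9 of 13 named neighbours, with Pign before and Kdsr after), Bak1, Bid, Bad and Bcl2l11, and for the second probe sets of Bcl2l1, Bax and Bnip3. It did not hold for the brighter probe set of Bcl2l1, with 0 of 25 neighbours on the gene's chromosome and the olfactory receptor genes Or52p2 and Or52m2 at its sides, between which RefSeq lists the pseudogene Bcl2l1-ps1.

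The brighter probe set of Bnip3 had 0 of 17 neighbours on the chromosome of Bnip3 and lay between Hibch and Nemp2, where RefSeq lists Bnip3-ps1. The brighter probe set of Bax had 0 of 23 and lay between Tmem106a and Rdm1, where no entry named after Bax is listed. RefSeq lists Bax-ps1, but not on that chromosome, and entries under other names were not searched. The only probe set of Mcl1 had 1 of 17, and 14 of its neighbours shared another chromosome, on which Mcl1-ps1 is listed elsewhere. RNA of a gene and of a near-identical copy cannot be told apart with such probe sets, and which locus their probes read was not tested. With the second probe sets in place of the brighter ones, Bcl2 was again the only member called (1 of 9).

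The gene most like Bcl2 across the arrays was Mat2a, which encodes the enzyme that makes S-adenosylmethionine, the methyl donor of the cell. Likeness was the Pearson correlation of deviations from the group means over 16 arrays, across the brightest probe sets of all named genes. It was 0.978 for Mat2a, 0.953 for Zfp385a, which encodes a zinc finger protein, and 0.947 for Wdr55, which encodes a WD-repeat protein of the nucleolus. These are descriptions of the same 16 arrays, with no test.

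Mat2a had values of 12.65, 12.59, 12.63 and 12.63 in HHR females and 12.65, 12.61, 12.66 and 12.58 in HHR males. In NHR females they were 12.40, 12.48, 12.05 and 12.06, and in NHR males 12.43, 12.45, 12.46 and 12.42. As with Bcl2, every HHR array lay above every NHR array, and NHR female 3 and NHR female 4 were the lowest.

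The Mat2a difference was 0.28 (adjusted p = 0.00225), and without the 3 high-scoring arrays it was 0.18 (adjusted p = 0.00657). Its second probe set gave 0.28 (adjusted p = 0.00272), and 0.17 without those 3 arrays (adjusted p = 0.00894). Zfp385a differed by 0.18 (adjusted p = 0.122) and Wdr55 by 0.22 (adjusted p = 0.0538), and neither was called.

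Over all 16 arrays the values of Bcl2 and Mat2a correlated at 0.991 (Spearman 0.912). Within the 8 NHR arrays the correlation was 0.995 and within the 8 HHR arrays, which span a narrow range, 0.534. The low arrays raised it: without NHR female 3 and NHR female 4 the correlation was 0.889 over the other 6 NHR arrays, and that of deviations, from group means retaken over the 14 arrays left, was 0.741 in place of 0.978. With the second Mat2a probe set, the correlation of values was 0.990 over 16 arrays, 0.997 in NHR and 0.354 in HHR.

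**Figure D3:**
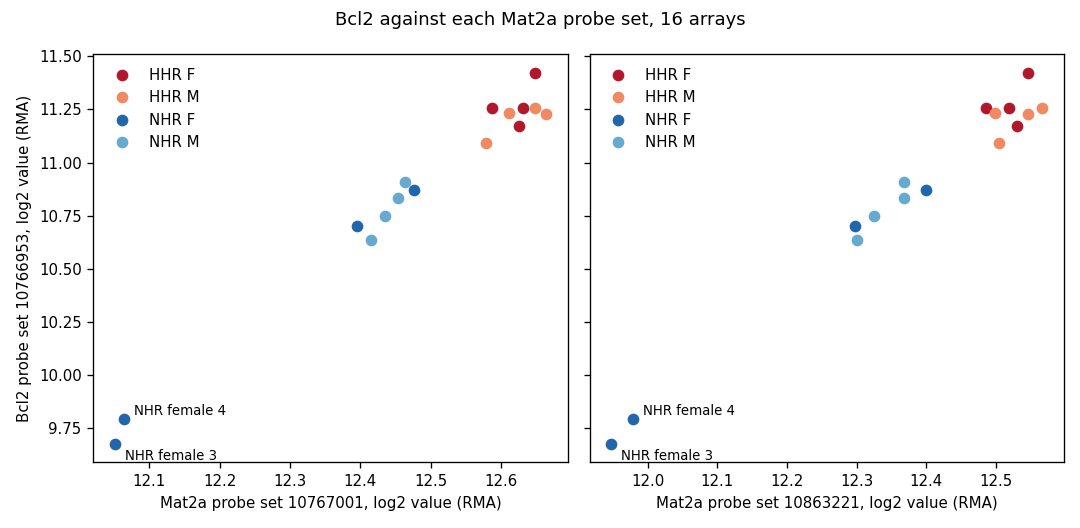
The log2 value of Bcl2 is plotted against that of each of the Mat2a probe sets, 1 point per array, coloured by strain and sex (F, female; M, male). The points lie near a line in both panels, with NHR female 3 and NHR female 4 at the lower left (Bcl2 at 9.68 and 9.79) and the 8 HHR arrays at the upper right.

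The Mat2a probe set used for likeness, the brighter of the pair, lies among identifiers of another chromosome. It had 0 of 10 named neighbours on the chromosome of Mat2a, with 7 on the chromosome that holds Bcl2, and lay between Serpinb3 and Cdh19, where RefSeq lists the related entry Mat2al1, while the second Mat2a probe set lay among the gene's own neighbours (19 of 19). Both gave nearly the same values, with a correlation of 0.997.

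Because Bcl2 and Mat2a moved together, and because Bnip3 is a known hypoxia-induced gene, the 250 bases before the annotated start of these 3 genes are shown, from RefSeq on assembly GRCr8, all on the minus strand. Windows were found for 9 of the 10 members, 12 windows in all. Capitals mark ACGTG, a form of the core that hypoxia-inducible factor binds, and TATAAA, the letters of a TATA box, each searched on both strands. Other forms were not searched, and the distance to the start was not considered. The Bcl2 window is chr13:23366901-23367150, that of Mat2a is chr4:106053613-106053862 and that of Bnip3 is chr1:203154963-203155212.
Bcl2: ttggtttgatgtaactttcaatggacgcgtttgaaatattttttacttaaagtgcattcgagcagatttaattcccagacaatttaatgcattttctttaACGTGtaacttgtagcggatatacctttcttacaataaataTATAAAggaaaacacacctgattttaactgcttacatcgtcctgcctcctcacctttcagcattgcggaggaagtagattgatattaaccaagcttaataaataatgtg
Mat2a: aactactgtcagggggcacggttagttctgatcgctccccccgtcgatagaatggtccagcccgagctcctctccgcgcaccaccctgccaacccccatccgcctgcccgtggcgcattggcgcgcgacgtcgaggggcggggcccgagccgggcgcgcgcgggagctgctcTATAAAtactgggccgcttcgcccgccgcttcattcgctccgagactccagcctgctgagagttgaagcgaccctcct
Bnip3: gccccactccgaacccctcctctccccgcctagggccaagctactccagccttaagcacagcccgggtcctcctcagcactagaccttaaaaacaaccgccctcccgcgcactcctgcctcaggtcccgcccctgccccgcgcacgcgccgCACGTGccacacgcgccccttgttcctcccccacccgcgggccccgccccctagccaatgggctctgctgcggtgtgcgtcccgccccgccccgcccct

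The Bcl2 window held 1 match to ACGTG and 1 to TATAAA, the Mat2a window 1 to TATAAA and none to ACGTG, and the Bnip3 window 2 overlapping matches to ACGTG, 1 on each strand of CACGTG. Of all 33469 promoter windows of this length, 16.6% held ACGTG and 12.9% held TATAAA. The Bcl2 window was poor in G and C (33.6%, the 4.19th percentile of all windows), and those of Mat2a (67.6%, the 88.5th percentile) and Bnip3 (72.4%, the 94.3rd percentile) were rich. The longest run of bases shared by the Bcl2 and Mat2a windows was 7. A match of letters is a description of the sequence and not evidence of binding.

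Of 12 measured BCL2 family genes outside the 10, limma called 1, which is 8.33% beside 23.1% of all named genes (11.8% higher and 11.2% lower), and their median difference was -0.07 beside -0.02 in all named genes. The called gene was Bcl2a1, an anti-apoptotic gene best known from blood cells. It averaged 5.43 in HHR and 5.65 in NHR, a difference of -0.22 (adjusted p = 0.0252), below the array medians, and without the 3 high-scoring arrays the difference was -0.16 (adjusted p = 0.133). Bnip3l, the close relative of Bnip3 in mitophagy, differed by -0.06 (adjusted p = 0.259), and Bok, a relative of BAX and BAK, by 0.06 (adjusted p = 0.626). Among BH3-only genes, Pmaip1, which encodes NOXA, differed by 0.10 (adjusted p = 0.279) and Bmf by -0.17 (adjusted p = 0.118). Bbc3 had no probe set of its own and is not analysed here.

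In the list of the apoptosome, caspases and related genes, 6 of 14 were called, 4 higher and 2 lower (42.9%), with a median difference of 0.07. Endog, which encodes a mitochondrial nuclease that can cut DNA in dying cells, fell in HHR, with means of 7.49 ± 0.11 and 8.71 ± 0.19 (SD, n = 8 per strain), a difference of -1.23 (adjusted p = 1.38e-08). Aifm1, which encodes the mitochondrial flavoprotein AIF, rose by 0.42 (adjusted p = 2.27e-04), and Casp2, an initiator caspase, fell by 0.27 (adjusted p = 0.0104). Apaf1, the scaffold of the apoptosome, differed by 0.08 (adjusted p = 0.367), and Cycs, cytochrome c, by 0.09 (adjusted p = 0.141). Without the 3 high-scoring arrays, 1 gene was higher and 1 lower in this list, Aifm1 (0.33) and Endog (-1.11), with 14.6% of all probe sets called, and Casp2 stood at -0.15 (adjusted p = 0.105).

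Genes upstream of the family were called in both directions. In the death receptor list 2 of 10 were called (20%, median 0.00): Tnfsf10, the ligand TRAIL, fell by 0.41 (adjusted p = 0.00529) and Fadd, the adaptor of the receptors, rose by 0.21 (adjusted p = 0.0455). Fadd was lost in 14 of 28 alternatives, among them the one without the 3 high-scoring arrays, where 1 of the 10 was called.

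In the hypoxia list 5 of 16 genes were called (31.2%, median 0.04), 2 higher and 3 lower. The glucose transporter gene Slc2a1 (-0.48, adjusted p = 2.09e-04) and the mTOR inhibitor gene Ddit4 (-0.58, adjusted p = 0.00181) fell, while the glycolytic gene Pgk1 rose by 0.22 (adjusted p = 0.00302). Without the 3 high-scoring arrays the Ddit4 difference was -0.38 (adjusted p = 0.00868), and Pdk1, a kinase gene of pyruvate metabolism among the 3 lower, was not called (adjusted p = 0.0526), which left 2 higher and 2 lower. Hif1a, which encodes the oxygen-regulated factor itself, differed by -0.02 (adjusted p = 0.921). The called genes of the list had both signs, and the activity of this factor was not tested.

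The list of survival kinases and 14-3-3 proteins also held phosphatase and FOXO genes. In it 5 of 17 genes were called (29.4%, median 0.00), 4 higher and 1 lower. The lower gene was Foxo3, and no Akt, Pim or Pak gene was called. Mapk8, the stress kinase JNK, rose by 0.43 (adjusted p = 2.32e-05), and the 14-3-3 genes Ywhab (0.22, adjusted p = 0.00503) and Ywhae (0.17, adjusted p = 0.0145) rose. Without the 3 high-scoring arrays 2 were called, both higher. Ywhab then was 0.14 (adjusted p = 0.0440) and Ywhae was 0.10 (adjusted p = 0.117). In the list of binding partners and turnover 4 of 11 were called (36.4%, median -0.06). Becn1, the autophagy gene whose product binds BCL2, fell by 0.23 (adjusted p = 0.00135), Dynll2, a dynein light chain that tethers BMF, by 0.45 (adjusted p = 0.00214), and the deubiquitinase gene Usp13 by 0.19 (adjusted p = 0.00444). The Dynll2 difference was -0.28 (adjusted p = 0.0101) without the 3 high-scoring arrays, a fit in which 1 gene of this list was higher and 4 lower.

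The list of the mitochondrial outer membrane, fission and mitophagy also held inner membrane and matrix genes, among them Slc25a5 and Ppif. In it 6 of 18 genes were called (33.3%, median 0.02), 4 higher and 2 lower. The ADP/ATP carrier gene Slc25a5 (0.27, adjusted p = 4.54e-04) and the fission gene Dnm1l (0.41, adjusted p = 0.00174) rose, and the autophagy receptor gene Sqstm1 fell by 0.33 (adjusted p = 0.00240). The fit without the 3 high-scoring arrays gave 0.27 for Dnm1l (adjusted p = 0.00950) and called 3 higher and 2 lower, with the fission gene Fis1 lost (adjusted p = 0.0745). In these 7 lists, 98 genes had a probe set of their own. The shares of called genes ran from 8.33% to 42.9% around the 23.1% of all named genes, and nothing particular to a list is read from them.

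**Figure D4:**
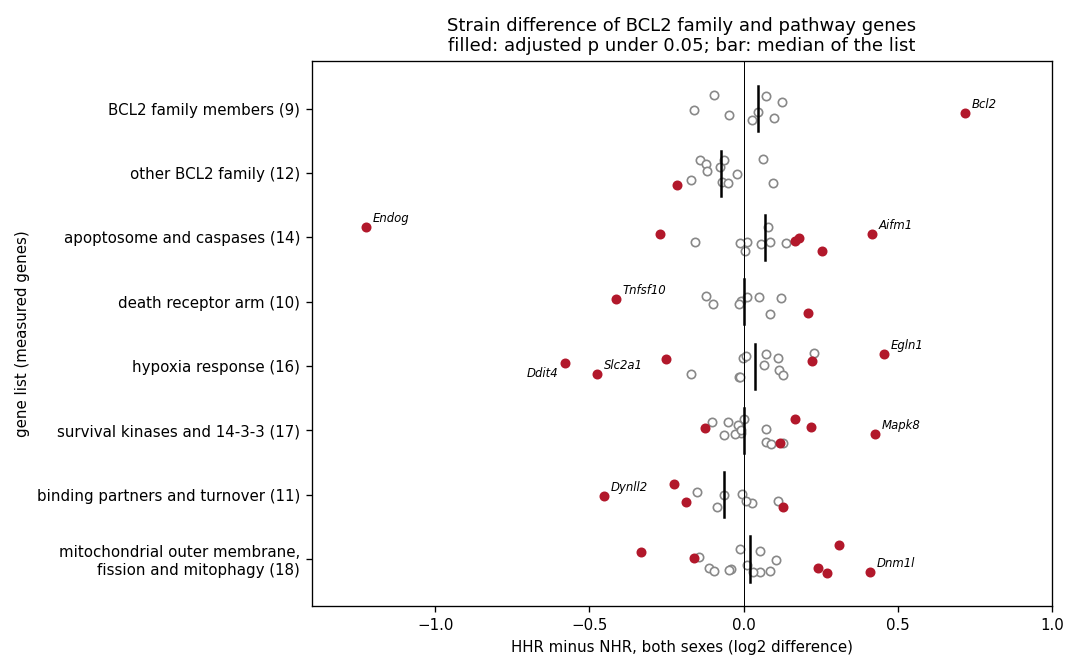
The difference of HHR minus NHR over both sexes in log2 units is plotted for each measured gene of the family and of 7 related lists, with filled red points for a limma adjusted p under 0.05, a black bar at the median of each list and names for genes beyond 0.41 in either direction. Points are moved up or down only to keep them apart. Bcl2 at 0.72 is the only red point among the 9 members, and called genes lie on both sides of 0 in every other list except that of the other BCL2 family genes, where the 1 called gene, Bcl2a1, is lower.

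Markers of cell types also differed between the strains, and their part in the Bcl2 difference was not tested. The counts below are to be read against the 11.8% of all named genes called higher and the 11.2% called lower. Of 9 cardiomyocyte markers 6 were lower in HHR and none higher, and the log2 of their summed level ran from 16.53 to 16.64 in HHR and from 16.61 to 16.73 in NHR. Of 5 endothelial markers 3 were lower (12.83 to 12.95 against 12.94 to 13.09). Of 8 fibroblast markers 3 were higher (14.47 to 14.70 against 14.31 to 14.57), and of 5 epicardial markers 3 were higher (10.99 to 11.15 against 10.49 to 10.95).

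The other 4 lists held calls in both directions in the fit to all arrays. Of 6 mural markers 1 was higher and 1 lower (13.05 to 13.29 against 13.02 to 13.24), of 11 leukocyte markers 1 was higher and 1 lower (10.69 to 11.06 against 10.66 to 11.04), and of 8 erythroid markers 2 were higher and 2 lower (12.95 to 13.40 against 12.62 to 13.29). Of 7 atrial markers 3 were higher and 1 lower (14.38 to 14.71 against 14.13 to 14.46). In the fit without the 3 high-scoring arrays, in which 14.6% of all probe sets were called, 3 cardiomyocyte and 3 endothelial markers were lower, and 2 fibroblast, 2 epicardial, 1 mural and 2 atrial markers were higher with none lower. That fit called 1 leukocyte marker in each direction, and 1 erythroid marker higher and 2 lower. NHR female 3 and NHR female 4, the arrays lowest in Bcl2, had the highest cardiomyocyte sums of the NHR females, 16.72 and 16.73 against 16.62 and 16.68. They also had the lowest mural and epicardial sums of that group, at 13.02 in both for mural markers and 10.49 and 10.68 for epicardial ones. NHR male 3 and NHR male 4 had cardiomyocyte sums of 16.71 each, with Bcl2 at 10.91 and 10.63. NHR male 4, the lowest in Bcl2 of the NHR males, also had their lowest mural and epicardial sums, 13.07 and 10.73. Those of NHR male 3 were 13.17 and 10.91. Whether any of these sums bears on Bcl2 was not tested.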

How the data were processed

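RNA of 16 rat hearts was measured on Affymetrix Rat Gene 1.0 ST arrays. The deposited log2 values were made by the authors with RMA; both RMA and limma are named in the submitters' processing notes. Their versions, the probe annotation build and any filter are not given in the sources used here. All 16 columns of values were used (0 left out). Group and replicate came from the titles, and gene symbols from the platform annotation, in which 15097 probe sets had 1 symbol, 323 several and 11922 none. The 9 measured members had 12 such probe sets, 3 of them having more than 1.

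Group means were fitted over all 16 arrays in limma 3.58.1 (R 4.3.3). Variances were moderated by empirical Bayes, and p-values were adjusted by Benjamini-Hochberg across the 27342 probe sets (threshold 0.05). There were 5 comparisons: the strains over both sexes, in females and in males, the interaction, and the sexes. Errors of differences are moderated standard errors and intervals are 95% intervals. Without a recorded background, dim and absent signals cannot be told apart, and precision is limited by how many arrays there are. The procedure was tested on simulated data whose noise was independent between probe sets and equally wide in every group. That test does not cover the component shared by probe sets within groups or the wider NHR groups.

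The members and lists were chosen with earlier results of these data known. All members were named, with up to 3 called genes of the smallest adjusted p per pathway list, a fixed set of genes whatever their values, and the 3 genes most like each called member; some genes and a list under this rule are not reported here. Cell type markers are given as counts and as the log2 of their summed linear values. RefSeq tables of assembly GRCr8, in which 15090 of the 15097 symbols were found, gave neighbours and promoter windows. Alternatives covered the scaling, a filter on dim probe sets, single-gene probe sets only, moderation, array weights, a replicate block, other fits and thresholds, and each array left out.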

Additional observations from a re-analysis of the deposited data

Results flagged for a closer look

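Bcl2 in HHR male 4 lay apart from the other HHR males. Its value was 11.09, the nearest of the other 3 was 11.23, and the gap was 0.830 of the range of the group, just past the 95% critical value of Dixon's test for 4 arrays. It was the only such array among 36 groups of members' values, and chance gives about 1 in 20 groups. The array still lay above every NHR array.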

How the results depend on the processing

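The count of called members over both sexes was 1 and was kept in 26 of 31 alternatives. It was 2 with quantile normalization and with cyclic loess, where Bnip3 was lower (-0.22, adjusted p = 0.0208, and -0.20, adjusted p = 0.0372). Leaving out single arrays gave 1 to 2: without NHR male 1 Bnip3 was called, and without NHR male 4 Bcl2l1 was called (0.17, adjusted p = 0.0246). The probe sets called in these fits numbered 5129 and 5300. In males the count of 0 became 1 when the 8 male arrays were fitted alone and without the 3 high-scoring arrays, with Bcl2 called in both. Those fits called 752 and 1260 of all probe sets in males, beside 1098 in the main fit. Bcl2 also passed in males without only NHR female 3 and NHR female 4 (limma adjusted p = 0.00405). Leaving out single arrays gave 0 to 1 in males: without NHR male 1 Bnip3 was called (-0.34, adjusted p = 0.0453), beside 704 of all probe sets. The count in females was 1 in all 29 alternatives, and those for the interaction and the sexes were 0 in all 28. The causes were not tested.

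The sign of Bax turned with its second probe set (0.0232). That of Bcl2l11 turned without HHR female 1 or NHR male 2, with leave-one-out values from -0.103 to 0.00253. Neither gene was called in any alternative. Median centring raised the share of higher calls among all called probe sets from 46.6% to 56.3%, with 52.6% for cyclic loess and 49.6% for quantile normalization. The alternatives without several arrays and with the second probe sets were chosen after seeing the data.

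Equal replicate numbers did not pair the samples throughout. In 8 pairs of an HHR and an NHR array of the same sex and number, the correlation of deviations ran from -0.11 to 0.30. Of these, 2 were over 0.1 and 3 were highest with their own number, all of them males. Whether arrays of equal number shared processing was not tested. With the replicate block 2 members were called over both sexes, Bnip3 (-0.16, adjusted p = 0.0473) joining Bcl2, and 6145 probe sets in place of 5651. The block changed no other count of members.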

Other observations

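Among all probe sets, named or not, the 10 with the highest correlation with the Bcl2 values over 16 arrays held both Mat2a probe sets (0.991 and 0.990) and 4 probe sets annotated as Rpl21, a gene of the large ribosomal subunit (0.985, 0.982, 0.979 and 0.967). Ddah1, which encodes an enzyme that degrades inhibitors of nitric oxide synthase, was at 0.968, and the other 3 probe sets had no symbol. These genes were chosen after their values were seen, and the correlations include the difference between the strains and the low values of NHR female 3 and NHR female 4.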
